A study of Triticum aestivum with 72 samples.

Results

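A81 is 1 of 36 genotypes from the wheat mapping population RL4452 × AC Domain, and it was compared here with the 35 other lines of the same cross. It is represented by 2 of the 72 arrays, labelled replicates 1 and 3. Both were taken because their titles name the genotype A81, and no measured value entered that choice. Every line has 2 arrays, each labelled a biological replicate, and the other lines therefore contribute 70 arrays and 35 line means. All 36 lines share the cross, the organ, the stage and the field: plants grew in a lattice design, and developing seed was taken 5 days after anthesis and frozen. No line received a treatment, and the labels give each line only as a name, so which parental alleles A81 carries was not used here. Polyadenylated RNA was labelled with biotin and hybridised to a 1-colour Affymetrix wheat array. The labels do not say what a replicate number refers to in the field, so p-values measure the spread between the labelled replicates.

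In a mapping population, each line inherits its own mixture of the alleles of both parents. A transcript that depends on a single segregating locus tends to take separate levels across lines, whereas a transcript that depends on many loci or on the growing conditions varies by degrees. Young wheat grain at this stage holds a green pericarp and an endosperm that is being laid down by cell division, before most storage protein is made. Because bread wheat has several closely related subgenomes, a probe set may read all copies of a gene or only one of them.

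Each of the 61179 probe sets outside the array controls was compared on the log2 scale as A81 minus the unweighted mean of the other line means. It was called where the adjusted p from limma, with 1 mean per line and Benjamini-Hochberg adjustment over all 61179 probe sets, lay under 0.05. This test uses the spread between the 2 arrays of a line, shared over all lines, and the spread between lines does not enter it. The position of the 2 A81 arrays among the 35 other line means is therefore given beside it. A probe set was outside the range when both A81 arrays lay above the highest, or both below the lowest, of those line means.

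In A81, 538 probe sets were higher and 317 were lower than in the other lines. The 855 called probe sets were 1.4% of those tested, the 538 were 0.879% and the 317 were 0.518%. Both A81 arrays lay above the range in 1264 probe sets, which is 2.07%, and below it in 1031, which is 1.69%. Called and outside the range were 546 probe sets, or 0.892% of those tested, of which 344 were above and 202 below. The largest rise among these was in the unnamed probe set Ta.23271.1.S1_s_at, at 9.00 and 9.80 in the 2 A81 arrays against a median line mean of 3.96 elsewhere. The largest fall among them was in TaAffx.119549.1.S1_at, also unnamed, at 4.86 and 4.66 against 9.83. The named gene with the largest rise among called probe sets was LOC543235, at 8.86 and 10.10 against a median of 6.62. Among genes of known role, the waxy gene Wx-A1 was higher in A81 than the mean of the other lines, though not outside their range. None of 17 gliadin and glutenin probe sets passed the test in either direction, which says little beside the 1.4% called over all probe sets.

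These counts rest to a large degree on replicate 3. Without that array, with replicate 1 assumed to vary like the arrays of other lines, 12 probe sets were called, 11 of them shared with the 855. Without replicate 1, 881 were called, of which 393 were shared. Of the 855, replicate 3 lay farther from the other lines in 705 and replicate 1 in 150. The median distance over the 855 was 0.74 log2 units for replicate 1 and 1.11 for replicate 3. One array of another line also moved the count above 1.5 times in each of 2 cases: it was 1649 without B33 replicate 3 and 1406 without C31 replicate 3.

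The 2 A81 arrays also shared a high 3′ to 5′ signal ratio. This ratio was the mean over 7 wheat control genes of the log2 signal of the 3′ probe set minus that of the 5′ probe set, and such ratios rise when RNA or its labelled copies are shorter. It was 1.48 in replicate 1 and 1.61 in replicate 3, against a lowest of 0.51, a median of 0.96 and a highest of 1.79 in the 70 other arrays. Higher ratios occurred in 5 other arrays for replicate 1 and in 2 for replicate 3. As a line mean A81 had the highest ratio, 1.54, followed by H8 at 1.52. The 7 control genes did not shift alike. In replicates 1 and 3, G6PDH read 3.32 and 3.73 against a median of 2.15 elsewhere, and sucrose synthase 7.19 and 6.63 against 5.74. CYP86 in replicate 1, at 1.82 against 1.81, and ef1a in replicate 3, at 0.96 against 0.95, lay near the median. With the ratio as a covariate, 139 probe sets were called by limma, 111 higher and 28 lower, and 129 of them were among the 855. All 855 kept their direction in that fit. The part of RNA quality in these differences was not tested further.

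Rises and falls did not respond alike to that covariate. The 538 rises kept a median of 0.88 of their size, and the falls a median of 0.57. After adjustment, 106 of the rises were still called, which is 19.7% of them, and 23 of the falls, which is 7.26%. Most rises thus lost their call although they kept most of their size at the median. A lost call therefore does not by itself mean a smaller difference. In the plot of differences with and without the ratio, most rises lay near the line of equal difference, while many falls of 1 to 2 log2 units lay close to −0.5.

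**Figure D1:**
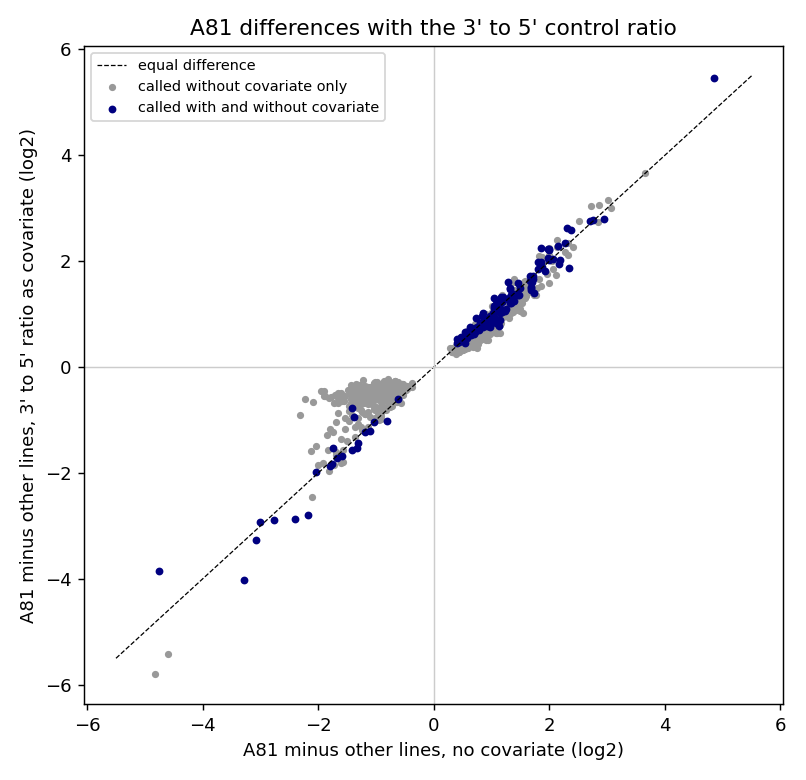
Difference between A81 and the mean of the 35 other lines for each of the 855 called probe sets, without a covariate (horizontal axis, log2) and with the 3′ to 5′ control ratio of each array as a covariate (vertical axis, log2); the dashed line marks equal values. Blue points are the 129 probe sets called in both fits, and many grey points among the falls lie nearer to 0 with the covariate.

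The line next to A81 in the order of levels was recorded for each called probe set outside the range. Among the 202 probe sets called below the range, the lowest other line was H8 in 78, or 38.6%, B33 in 25 and C31 in 16. Their ratios were 1.52, 1.32 and 1.26, above the median of 0.95 over the other lines. Among the 344 called above the range, the highest other line was A88 in 51, or 14.8%, A35 in 33, H8 in 30 and G13 in 29. The ratios of these lines were 1.21, 1.11, 1.52 and 0.66, so all but that of G13 were also above 0.95. Over whole profiles, the deviations of a line from the mean of the rest correlated most with those of A81 in A88 and H8, at r = 0.42 and 0.41 over the 61179 probe sets, and least in D15, at −0.48. These correlations describe line means that share arrays in the means they are set against.

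Both A81 arrays moved together over the whole array. The Pearson correlation of their deviations from the mean of the other lines, over all 61179 probe sets, was 0.655. The same measure ran from −0.34 to 0.65 in the other lines, with a median of 0.22, and G13 came next to A81. Both arrays shifted the same way in 854 of the 855 called probe sets and in 64.3% of all. The 855 were called from the mean of these same arrays, so their choice largely fixes the count of 854. Shifts of at least 1 log2 unit the same way in both arrays occurred in 871 probe sets, 418 up and 453 down, and 250 of these were called. A shift of at least 1 in opposite directions occurred in 1 probe set.

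**Figure D2:**
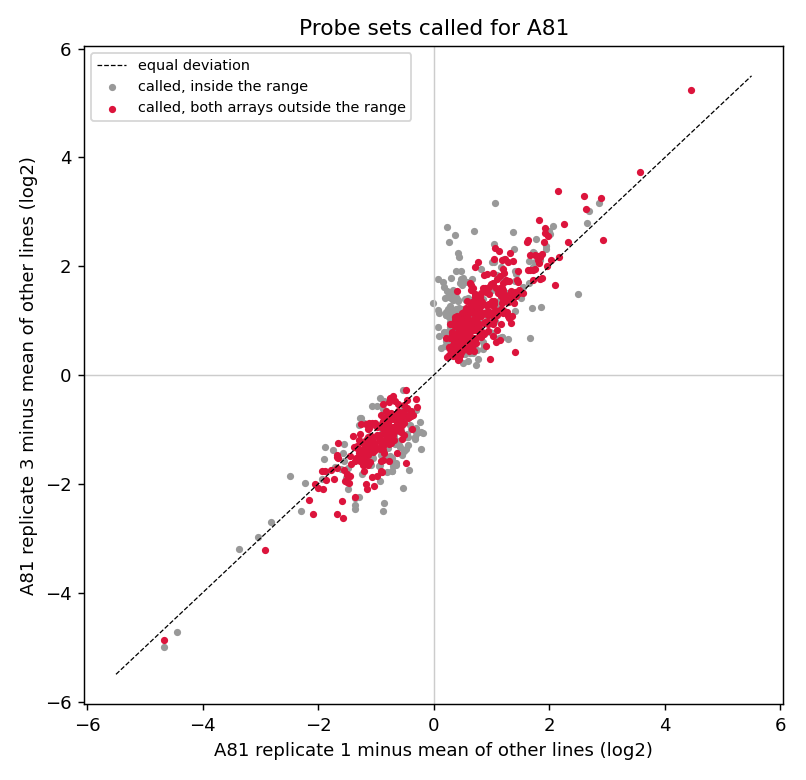
Deviation of A81 replicate 1 (horizontal axis) and of A81 replicate 3 (vertical axis) from the mean of the 35 other lines, in log2 units, for the 855 called probe sets. Red points are the 546 with both arrays outside the range of the other line means; most points lie farther from 0 for replicate 3 than for replicate 1.

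Set beside every other line in the same fit, A81 had the highest number of probe sets that were both called and outside the range of the rest, 546. The other lines ran from 0 to 327, with a median of 1. B33 had 327, E5 had 199 and G13 had 143. In B33 and E5 the 2 arrays did not deviate together, at r = 0.01 and 0.09, whereas in G13 they did, at 0.65. By the number called alone, A81 came second with 855, after B33 with 966. These counts are a description of the labelled lines, and no test of the order was made.

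**Figure D3:**
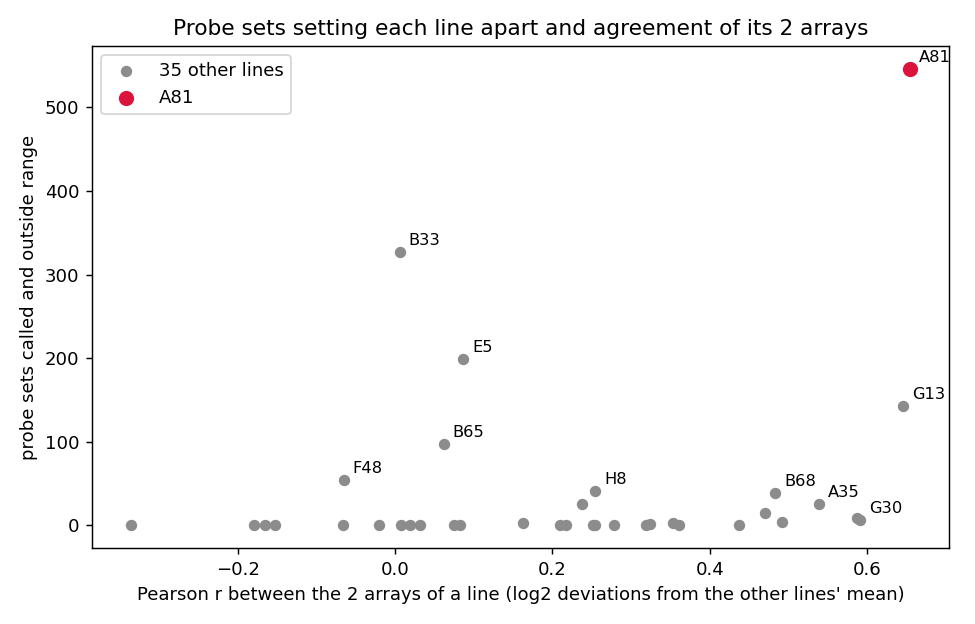
Number of probe sets both called for a line and outside the range of the other line means (vertical axis) against the Pearson correlation of the deviations of its 2 arrays from the mean of the other lines over 61179 probe sets (horizontal axis); each point is 1 of 36 lines. A81, in red, lies at 0.655 and 546, with B33 at 327, E5 at 199 and G13 at 143.

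The probe set TaAffx.119549.1.S1_at separated A81 most clearly. It read 4.86 in replicate 1 and 4.66 in replicate 3. The 35 other line means ran from 5.69 in F48, through a median of 9.83, to 10.61 in G13. The difference was −4.76 ± 0.51 log2 units (SE, n = 2 arrays of A81), with a limma adjusted p of 3.53e-07. Among single arrays, A91 replicate 1 was also low at 4.87, and the arrays of F48 read 5.86 and 5.51, so a low level was not found in A81 alone. It stayed called when any 1 of the 72 arrays was left out, with a limma adjusted p of 0.00261 without A81 replicate 3. Adjusted p was 5.09e-05 in limma with the ratio as covariate and 0.0176 with the line means as units.

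The unnamed probe set Ta.20516.1.S1_at was the second largest fall outside the range, at 4.57 and 4.27 against line means from 4.83 to 9.08 with a median of 7.74. Its difference was −3.07 ± 0.49, with a limma adjusted p of 0.000312. Low arrays also occurred in A77, C10, G32, G30 and F29, and F29 read 4.87 and 4.79. A81 was therefore the lowest of several lines with low arrays. The next falls were smaller: Ta.10307.2.S1_at fell by 2.32 log2 units, Ta.28847.2.S1_s_at by 2.23 and TaAffx.138472.1.S1_s_at by 2.12, at limma adjusted p of 0.027, 0.033 and 0.0473. None of the 3 was called with the ratio as covariate, at limma adjusted p of 0.815, 0.929 and 0.598. The other 5 of the 10 largest falls outside the range lay between −2.10 and −1.94, and they were TaAffx.86898.1.S1_at, Ta.25294.1.S1_at, Ta.7524.2.A1_x_at, Ta.9000.1.S1_at and Ta.662.3.S1_a_at. The lowest other line was H8 in 4 of the 10 falls.

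Among the rises outside the range, Ta.23271.1.S1_s_at was the largest, at 9.00 and 9.80. The other line means ran from 3.17 in J15 to 8.51 in A88, with a median of 3.96. The difference was 4.85 ± 0.67 and the limma adjusted p was 3.35e-05. High single arrays occurred in B68 at 9.48, in A88 at 8.97 and 8.06, and in A35 at 8.92, so the top of the order held arrays of 4 lines. A second probe set with the same cluster number, Ta.23271.2.S1_a_at, was higher as well, at 4.16 and 5.16 against 3.31 to 3.90, with a difference of 1.15 and a limma adjusted p of 1.62e-05. This second probe set was also called with the line means as units, at a limma adjusted p of 3.36e-05, whereas the first was not, at 0.172.

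Ta.3211.1.S1_at showed another pattern. It read 9.32 and 9.48 in A81, but single arrays of A40, G30, H8, H9 and F29 lay between 9.14 and 9.25. The other line means ran from 3.36 to 9.17. The difference of 3.66 ± 0.77 was called at a limma adjusted p of 0.00889, and A81 exceeded the highest line, G30, by little. It was not called with the ratio as covariate or with hybridisation day as a block, at limma adjusted p of 0.0679 and 0.0848. Its difference changed little in these fits, to 3.66 with the ratio and 3.44 with day. The other rises outside the range were Ta.9332.2.A1_at, higher by 3.08, Ta.10549.2.A1_at by 2.94 and Ta.18076.1.S1_at by 2.84. They were followed by Ta.22732.1.S1_s_at, higher by 2.71, Ta.22662.1.S1_at by 2.51, Ta.20127.1.S1_at by 2.38 and Ta.14221.1.S1_s_at by 2.34. In Ta.14221.1.S1_s_at the A81 arrays, at 7.81 and 8.84, also lay above every single array of the other lines. F29 was the highest other line in Ta.9332.2.A1_at, Ta.10549.2.A1_at, Ta.22732.1.S1_s_at and Ta.14221.1.S1_s_at.

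**Figure D4:**
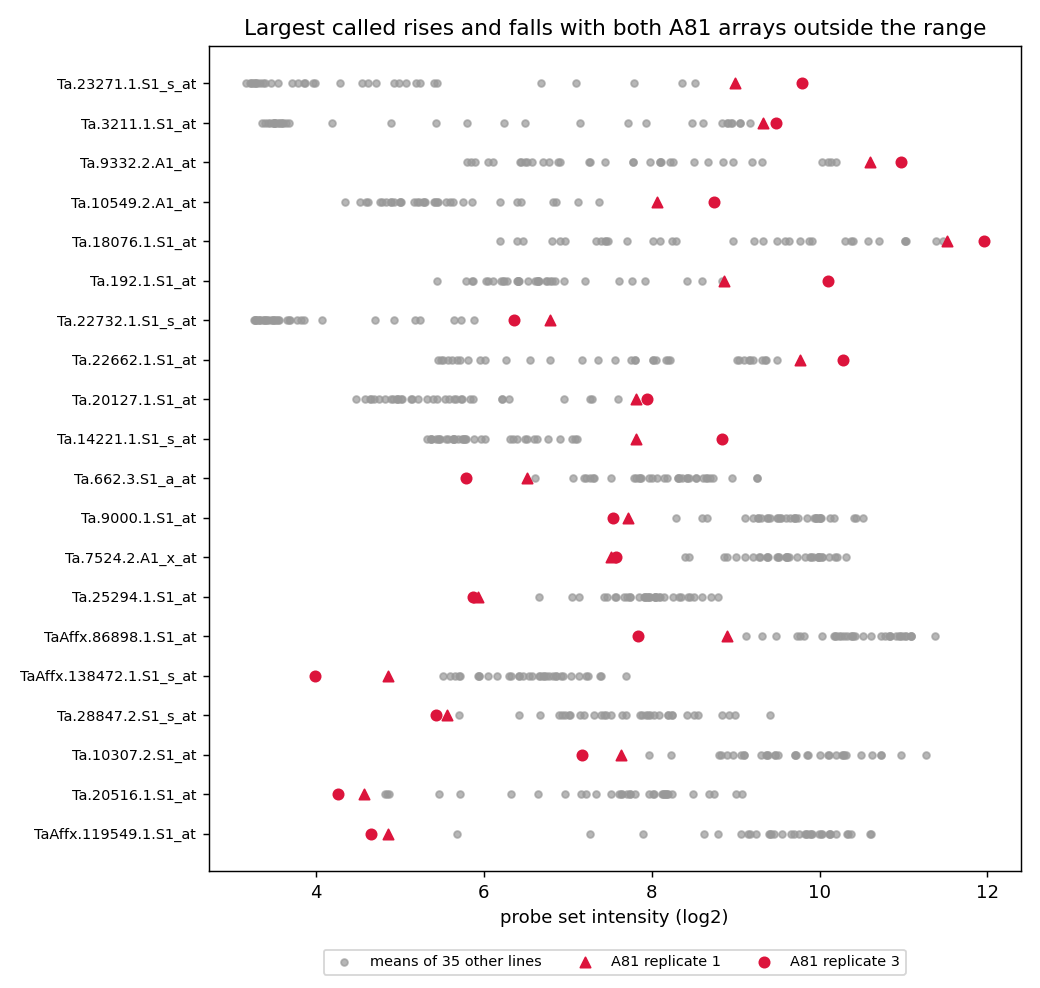
Log2 intensity (horizontal axis) of the 10 largest rises and the 10 largest falls among probe sets called for A81 with both arrays outside the range, 1 row per probe set. Grey points are the means of the 35 other lines, and the red triangle and circle are A81 replicates 1 and 3; the largest gap between A81 and the nearest line mean is in TaAffx.119549.1.S1_at, 0.82.

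Gaps to the nearest line were mostly small. Over the 546 probe sets called and outside the range, the A81 array nearer to the others lay a median of 0.16 log2 units beyond the range. The gap was at least 0.25 in 166 and at least 0.5 in 39. Measured against the 70 single arrays in place of the line means, both A81 arrays lay outside in 249 probe sets, of which 172 were called, 127 above and 45 below.

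When the 36 line means were the units, so that the spread between lines entered, limma called 112 probe sets, which is 0.183%, 97 higher and 15 lower in A81, and 101 of them were among the 855. The first comparison, the fit of line means, the fit with the ratio and a fit with hybridisation day as a block all called 45 probe sets, 42 higher and 3 lower. None of the 45 has a gene symbol in the supplied annotation, and the set was formed after the values were seen. The 3 lower ones were TaAffx.119549.1.S1_at, Ta.25294.1.S1_at, at 5.94 and 5.87 against a lowest line mean of 6.66, and Ta.11951.1.S1_at, at 6.67 and 6.06 against 6.63, where replicate 1 was inside the range. The largest rise of the 45 was Ta.27812.1.A1_at, at 7.35 and 8.03 against line means up to 6.61. Brightest among them was Ta.18920.1.S1_at, at 11.09 and 11.48, where the other line means ran only from 9.60 to 10.35. A pair with the same cluster number, TaAffx.13704.1.A1_s_at and TaAffx.13704.2.A1_at, was higher in both members, by 1.32 and 1.4.

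The called probe sets were in part those that differ between other lines. A limma F-test over the 35 other lines without A81 called 1183 probe sets, which is 1.93%. Of these, 151 were among the 855, which is 17.7% of the 855 and 12.8% of the 1183. The share was 11.5% among the 546 outside the range and 28.5% among the 309 inside it. A called probe set lies inside the range more readily where the other line means are widely spread, which the F-test also detects. The contrast of 11.5% and 28.5% therefore follows in part from these definitions. Both tests also use the replicate spread of the other lines, so their overlap is no independent check. The largest fall of all called probe sets was one of those inside the range. Ta.10945.2.A1_a_at read 3.33 and 3.00 in A81, while the other line means ran from 3.07 to 11.08 with a median of 10.13. A81 lay within the range there, among other lines near the low end, and its difference was −4.83 with a limma adjusted p of 0.0365.

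The called probe sets differed in level and kind from the whole array. Their median level over arrays was 6.80 against 5.38 for all probe sets on the log2 scale. Probe sets under 5 were 20.2% of the called and 43.8% of all. The median level was 6.22 for the rises and 7.37 for the falls, so the falls lay at the brighter level. Identifiers that begin with TaAffx made up 33.7% of the called and 48.5% of all, and their median level of 4.71 was lower than the 6.58 of the others. Suffixes that mark probes shared between transcripts (_a, _s and _x) were each more frequent among the called, for example _a at 11.1% against 5.43%. The 855 stand for 775 cluster numbers, and 67 of the 68 cluster numbers with several called probe sets moved in 1 direction.

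Gene symbols were available for 1273 probe sets of 771 genes. Of these, 25 probe sets were called, or 1.96%, near the 1.4% of all, 12 higher and 13 lower, and they stand for 22 genes. Most carry only a locus number in the supplied tables, and no role is given for those.

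The gene with a known role and the largest difference was LOC543395, or Wx-A1, which encodes granule-bound starch synthase I, the enzyme that makes amylose in the endosperm. Its probe set Ta.2795.1.S1_a_at read 10.80 in replicate 1 and 11.09 in replicate 3. Elsewhere the lowest line mean was 7.08 in A35, the median 8.75 and the highest 10.91 in D15. A81 was thus at the top of the order, though not outside it, and the difference was 1.98 ± 0.37 with a limma adjusted p of 0.00258. This probe set also differed among the 35 other lines, with a limma F-test adjusted p of 1.52e-06. Against single lines, A81 was higher than A35 by 3.87, at a limma adjusted p of 7.32e-05. Against G30 and G13, at line means of 10.80 and 10.65, it was not called, at 0.94 and 0.848. The difference from all other lines was called with the ratio as covariate, at a limma adjusted p of 0.0186, and not with the line means as units, at 0.506.

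No other probe set of the starch and fructan list was called, so 1 of its 7 was higher and 0 were lower, beside 0.879% and 0.518% of all. AGP-S, LOC543299, the small subunit of ADP-glucose pyrophosphorylase that supplies the sugar donor for starch, read 10.99 and 11.01 against a median of 11.26. BMY1, LOC543318, a beta-amylase, read 12.57 and 12.49 against 12.78. Their limma adjusted p were 0.601 and 0.595. The fructan exohydrolase genes 1-FEH, LOC543441, and 6-FEH, LOC780575, degrade the fructans of cereal tissues. Their 4 probe sets lay between −0.51 and 0.42, none called. The median difference of the list was −0.18, against 0.02 over all probe sets.

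Genes named only by locus made up most of the larger changes. LOC543235 read 8.86 and 10.10 in A81, both above the highest other line mean of 8.84 in G13. As a single array, G13 replicate 1 read 9.02, above A81 replicate 1. The difference of LOC543235 was 2.76 ± 0.49 with a limma adjusted p of 0.00122, and 0.0149 with the ratio as covariate. It was not called with the line means as units, at a limma adjusted p of 0.133. LOC542839 was higher by 2.13, LOC778392 by 2.06 and LOC542838 by 1.99, at limma adjusted p of 0.0437, 0.00584 and 0.0114. Of these 3, LOC778392 was outside the range, at 10.89 and 11.74 against a highest line mean of 10.82, and the other 2 were not. For LOC778392 and LOC542838, 1 of 3 probe sets was called in each case. The uncalled ones of LOC778392 differed by 1.02, at a limma adjusted p of 0.0614, and by −0.05. Those of LOC542838 differed by −0.21 and −0.30, so not all probe sets of these genes read alike. LOC543398 was higher by 1.1 and LOC100037569 by 0.50, at limma adjusted p of 0.0264 and 0.0256.

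**Figure D5:**
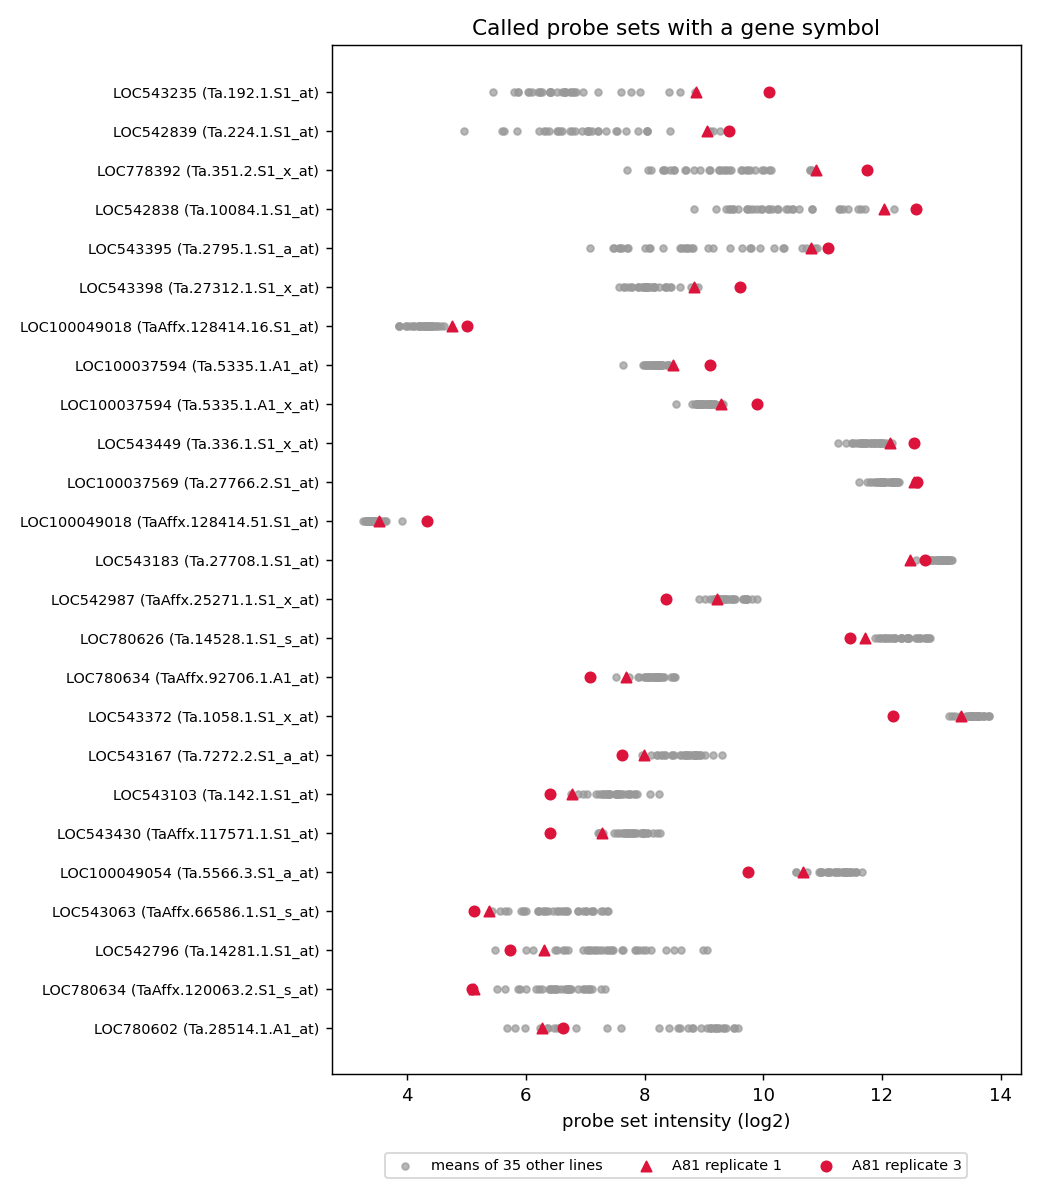
Log2 intensity (horizontal axis) of the 25 probe sets with a gene symbol that were called for A81, ordered by the difference from the other lines. Grey points are the means of the 35 other lines, and the red triangle and circle are A81 replicates 1 and 3; LOC543395 is Wx-A1, where A81 lies at the top of a wide spread of lines.

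The largest fall with a symbol was LOC780602, at 6.27 and 6.62 against a median of 8.81. Its difference was −1.72 ± 0.46, with a limma adjusted p of 0.0427, but line means reached down to 5.68 in A10, and 1 of its 5 probe sets was called. LOC780634 was called lower in 2 of its 3 probe sets, by 1.46 and by 0.77, at limma adjusted p of 0.0211 and 0.00342. In the first of these, TaAffx.120063.2.S1_s_at, the arrays read 5.13 and 5.10, both below the lowest line mean of 5.51. The third probe set of LOC780634 differed by −1.17 and was not called, at a limma adjusted p of 0.0881. LOC542796 fell by 1.37, LOC543063 by 1.28 and LOC100049054 by 1.02, at limma adjusted p between 0.033 and 0.0455. The 6 other falls with a symbol and no known role were smaller: LOC543430, LOC543103, LOC543167, LOC543372, LOC780626 and LOC542987 differed by −0.92 to −0.63. Only 1 probe set was called of 2 for LOC543063, LOC543430, LOC780626 and LOC542987, of 3 for LOC543372 and of 4 for LOC543167. The uncalled probe sets of LOC543063 and LOC542987 differed by only −0.16 and −0.18, and those of LOC543430 and LOC780626 by −0.54 and −0.61. The probe sets of LOC543372 all lay below the other lines, whereas 1 of LOC543167 lay above, by 0.10. None of the falls with a symbol was called with the ratio as covariate, where limma adjusted p ran from 0.0869 to 0.942. LOC100049047 lay outside the range in 2 probe sets, at differences of −1.64 and −1.55, but was not called, at limma adjusted p of 0.0706 and 0.0676.

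Smaller rises occurred in a pair of named biosynthetic genes. COMT1, LOC543449, encodes a caffeic acid O-methyltransferase of the lignin pathway and read 12.14 and 12.54 against a median of 11.79. Its difference was 0.56 ± 0.14, with a limma adjusted p of 0.0275. DMAS1, LOC100037594, encodes deoxymugineic acid synthase, which makes an iron chelator that grasses secrete from roots. One of its probe sets read 8.49 and 9.11 against a highest line mean of 8.41, and 2 of its 3 probe sets were called, higher by 0.62 and 0.58. Without replicate 3 none of these was called, at a limma adjusted p of 1, and with the ratio as covariate the values were 0.291 for COMT1 and 0.579 and 0.636 for DMAS1.

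The photosynthesis list, which marks green pericarp, had 2 probe sets higher and 0 lower among 36, where 0.879% of all probe sets tested were higher and 0.518% lower. Both belong to rbcl, LOC100049018, the large subunit of Rubisco, which fixes carbon dioxide. They are dim: TaAffx.128414.16.S1_at read 4.76 and 5.01 and TaAffx.128414.51.S1_at read 3.53 and 4.34, and they were higher by 0.62 and 0.48, at limma adjusted p of 0.0136 and 0.0449. The 28 probe sets of rbcl ran from −0.14 to 0.68. The brightest 2, at about 14.8 in both A81 arrays, were higher by 0.16 and 0.19 and were not called, at limma adjusted p of 0.641 and 0.6. For the oxygen-evolving proteins PsbO and PsbP, the Rieske protein petC, FBP (fructose bisphosphatase) and PRK (phosphoribulokinase), no probe set passed the test. The largest of these differences was −0.77 in 1 of 2 PsbP probe sets, at a limma adjusted p of 0.199. Over the list 31 of 36 probe sets lay above the mean of the other lines, 25 of them from rbcl alone, and 3 of the 36 were outside the range. Of all probe sets, 2.07% lay above the range and 1.69% below it. The median difference was 0.15 against 0.02 for all probe sets.

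Core histones package newly made DNA and mark dividing tissue. Of 18 probe sets, 0 were higher and 1 was lower, beside the 0.518% of all probe sets that were lower. Below the mean of the other lines lay 16, with a median difference of −0.11, and 0 of the 18 were outside the range. Over all probe sets, 2.07% lay above the range and 1.69% below it. The 1 called lower was of wcH2B-6, LOC543183, a histone H2B gene, at 12.47 and 12.73 against a median of 13.02. Its difference was −0.40 ± 0.09, with a limma adjusted p of 0.0177. It was not called with hybridisation day as a block, at 0.137, or with the ratio as covariate, at 0.261. The summed level of the list was 16.01 and 16.22 in A81, within the 15.92 to 16.59 of the other lines.

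No probe set passed the test in the remaining lists. Over all probe sets 1.4% were called, and at that share lists of this size can hold no call without differing from the whole array. The gliadin and glutenin list, storage proteins of the starchy endosperm, held 17 probe sets with differences from −0.19 to 0.22 and a median of −0.01. Its median level was 4.07, near the dim end of the array, and its summed level was 10.79 and 10.71 in A81 against a median of 10.76. The exception in level was Ta.27777.1.S1_at, a probe set of LOC100125692, at 10.39 and 10.29. The 16 probe sets of serpins, amylase inhibitors and thionins had a median of 0.01, and the 10 of the embryo, dehydrin and ABA-responsive list one of 0.03. The 4 raftin probe sets, which mark anthers, lay between −0.16 and 0.05, with a median level of 4.09.

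In the antioxidant and defence list, 12 probe sets had a median of 0.08. A catalase probe set of CAT1 lay below the range, at 5.05 and 4.83 against a lowest line mean of 5.06, but was not called, at a limma adjusted p of 0.179. The other CAT1 probe set was at 8.31 and 8.78, within the range. The 9 probe sets of translation factors and ribosomal proteins had a median of −0.12, and the 11 of tubulins and cell wall genes one of 0.05. XTH, a xyloglucan-modifying enzyme of the growing cell wall, read 9.59 and 9.18 against a median of 10.44, and its difference of −1.0 had a limma adjusted p of 0.0671. Of the heat shock genes, hsp16.9A, LOC543277, read 7.44 and 9.08 and FKBP70, LOC543314, read 11.88 and 11.36. The other line means of hsp16.9A ran from 4.25 to 12.47, and its difference of 1.59 had a limma adjusted p of 0.741.

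Hybridisation day was examined as a batch. The arrays fell on 12 days, and the 2 A81 arrays were on different days, which held 6 and 5 arrays. Within its own day, replicate 1 differed in the same direction as the whole comparison in 853 of the 855 called probe sets, and replicate 3 in all 855. Replicate 1 lay beyond every other array of its day in 716 and replicate 3 in 746. Because the 855 were called from these same 2 arrays, their choice largely fixes these counts, which are therefore no check of the day. With day as a block, limma called 786 probe sets, 622 higher and 164 lower, of which 456 were among the 855.

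A81 was also set against 3 single lines, A35, G13 and G30, whose 2 arrays correlated at r = 0.54, 0.65 and 0.59. Agreement alone did not define this choice, since F29, at 0.59, was not compared. Against A35, 44 probe sets were higher and 35 lower in A81. Against G13 the counts were 221 and 509, and against G30 they were 439 and 606, all by limma at the same threshold over all probe sets. These 3 comparisons share the A81 arrays. The count against A35 fell to 12 without A81 replicate 3 and to 13 and 14 without 1 of the A35 arrays. Against G13 it fell to 6 without A81 replicate 3 and to 8 without G13 replicate 3, and against G30 to 17 and to 38 without the corresponding arrays. With the ratio as covariate, the counts were 68 against A35, 18 against G13 and 92 against G30. With hybridisation day as a block they were 3, 800 and 1975.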

How the data were processed

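The deposited values are linear probe set intensities of 72 one-colour arrays. The submitters' processing notes name RMA and no version; joint summarisation of the arrays is not stated. Each array also has a deposited run record, from which only the hybridisation day was used. Array medians lay between 5.31 and 5.44 on the log2 scale. Here log2 was taken with a pseudocount of 0, 111 control probe sets were left out and the fit of 61179 used limma 3.58.1 (R 4.3.3) and 36 residual degrees of freedom. No other per-sample column was used, and arrays give no count depth: their number limits precision. G32 replicate 3 was grouped by its title.

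Named were the 10 largest rises and falls called and outside the range, the 12 largest of each with 1 symbol, the 5 largest with a symbol outside the range, and in each of the 11 lists the called members and the largest uncalled one. Ta.23271.2.S1_a_at, Ta.10945.2.A1_a_at and the 45 probe sets called in all fits were chosen after their values were seen. Members and lists were chosen with earlier results of these data known. On simulated data of 61179 probe sets, the comparison recovered 24%, 78%, 90% and 98% of differences of 0.5, 1, 1.5 and 2 log2 units. It made 5 false calls there. These rates hold for the simulated data only. They give no error rate for the real arrays, where the 3′ to 5′ ratio and single arrays moved the count called. Alternatives were the line means as units, replicate number, day, 3′ to 5′ ratio, 2 normalizations, a pseudocount of 16, a filter on dim probe sets, the range of single arrays, and each array left out.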

Additional observations from a re-analysis of the deposited data

How the results depend on the processing

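The count called, 855, became 112 with the line means as units, 139 with the 3′ to 5′ ratio as covariate, 1376 with quantile normalization and 1662 without the 15 lines whose own 2 arrays correlated below 0.1. The last of these was chosen after seeing the data and lowers the residual spread by construction. The planned omission of lines whose arrays did not match in earlier work was not run, because that list of lines was not used here. The count called and outside the range, 546, became 96 with the line means, 98 with the ratio, 172 with the range of single arrays and 898 without the 15 lines, and the count outside, 2295, became 249 with single arrays. Against A35, G13 and G30 the counts were 79, 730 and 1045. They became 570, 1808 and 2495 without the 15 lines. With the ratio those against G13 and G30 became 18 and 92, and with day as a block those against A35 and G30 became 3 and 1975. The rank of A81 by count called, 2, became 4 with the ratio, 3 with median centring, 3 with a pseudocount of 16, and 1 with day or with the filter on dim probe sets. Leaving out 1 array in turn gave 12 to 1649 called, 11 to 872 called and outside, and 1736 to 13522 outside, where in the highest case a single A81 array had to lie beyond the range. The same gave 12 to 129 called against A35, 6 to 1192 against G13 and 17 to 1728 against G30, a correlation of the 2 A81 arrays of 0.647 to 0.663, and a rank of 1 to 12. The cause of these shifts was not tested.

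With the replicate number as a block, 1076 probe sets were called, 851 of them among the 855, and 645 were called and outside the range. To see whether the numbers pair the samples, the difference of replicate 3 minus replicate 1 was correlated between the 35 lines that have both. Over 595 pairs of lines the correlation had a mean of 0.04 and ran from −0.66 to 0.62, above 0.1 in 229. The mean showed little pairing by number, though single pairs of lines varied widely. Of the 57 named probe sets, only THI1.1 turned direction under an alternative that was run, to −0.048 log2 units with day as a block, and it was called in neither fit. Not all of the 57 were called in the first comparison, so fewer than 57 calls could be lost. The calls lost were 41 with the line means as units, 34 with the ratio and 18 with day. A further 7 were lost without the 15 lines, 4 with a pseudocount of 16 and 3 with median centring. With the line means, only Ta.1058.1.S1_x_at, Ta.25294.1.S1_at and TaAffx.119549.1.S1_at of the named probe sets were still called. With arrays, the number of replicates and the signal over background limit what can be seen, and 43.8% of all probe sets lay under 5 on the log2 scale.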
